A study of Mus musculus with 23 samples.

Results

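The expression of 10 tubulin genes, 4 encoding alpha and 6 encoding beta subunits, was measured by RNA sequencing in Nedd8-deficient and control hippocampal cultures. The genes were taken from the count tables by Ensembl identifier through the GRCm39 annotation, all 10 of them were found among the 56941 genes listed, and all 10 passed the expression filter that 14488 genes passed. Cultures came from hippocampi of P0 mice homozygous for Nedd8cKO, an allele made with CRISPR in FVB/N zygotes and listed by the study as kept in C57BL/6N, which carries loxP sites before the second exon and after the one that follows it of *Nedd8*. RFP and CRE libraries share this allele and a lentivirus given at DIV1 whose Synapsin1 promoter drives RFP alone or CRE with RFP, so that CRE is directed to neurons while the cultures also hold glia. RNA was collected after 12 days in culture by the sample labels and 1 day later by the study's methods. The labels give 12 CRE and 11 RFP libraries, numbered by what is read here as 3 cultures per group with up to 4 libraries each. Nothing states that libraries of a culture came from separate dishes, so p-values measure the spread between libraries, which may be technical.

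Microtubules are hollow polymers of alpha and beta tubulin, and they give axons and dendrites their shape and serve as tracks for transport. Mammals carry several genes for each subunit, called isotypes. Their products differ mostly in an acidic tail at the C-terminus that is rich in glutamate and is read by motors and by enzymes that modify it. *Tuba1a*, *Tubb2a*, *Tubb2b*, *Tubb3*, *Tubb4a* and *Tuba4a* are enriched in the nervous system, and are called neuronal isotypes here. *Tuba1b*, *Tuba1c*, *Tubb5* and *Tubb6* are expressed in many tissues and are called widely expressed isotypes. Cells also adjust tubulin mRNA to the pool of free tubulin, a process called autoregulation, in which TTC5 binds the first residues of nascent tubulin at the ribosome and the mRNA is then degraded.

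The last 60 coding bases of 7 of the genes cover the tail in which most isotypes differ. They are given from the GRCm39 genome on the coding strand, 5′ to 3′, and codons for glutamate are in capitals.
*Tuba1c*, chromosome 15 from 98935831 to 98935890, plus strand: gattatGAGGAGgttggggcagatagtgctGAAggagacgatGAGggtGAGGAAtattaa
*Tuba4a*, chromosome 1 from 75192266 to 75192325, minus strand: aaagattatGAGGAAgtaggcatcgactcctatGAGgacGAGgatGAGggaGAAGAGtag
*Tubb2a*, chromosome 13 from 34258451 to 34258510, minus strand: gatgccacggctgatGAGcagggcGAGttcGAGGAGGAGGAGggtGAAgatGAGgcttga
*Tubb2b*, chromosome 13 from 34311454 to 34311513, minus strand: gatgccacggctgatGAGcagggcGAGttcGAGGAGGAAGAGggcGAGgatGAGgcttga
*Tubb3*, chromosome 8 from 124148362 to 124148421, plus strand: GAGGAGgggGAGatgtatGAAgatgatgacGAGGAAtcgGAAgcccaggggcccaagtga
*Tubb4a*, chromosome 17 from 57387690 to 57387749, minus strand: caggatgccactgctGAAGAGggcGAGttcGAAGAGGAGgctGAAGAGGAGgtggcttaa
*Tubb5*, chromosome 17 from 36145874 to 36145933, minus strand: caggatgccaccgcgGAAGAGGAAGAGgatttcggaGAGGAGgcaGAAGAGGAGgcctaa

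Between 6 (*Tuba1c*) and 9 (*Tubb4a* and *Tubb5*) of the 19 amino acid codons in these stretches encode glutamate. The stretches of *Tubb2a* and *Tubb2b* differ in some bases but encode the same amino acids. Over the whole coding sequence, *Tuba1a* and *Tuba1b* share 98.3% of bases, *Tuba1b* and *Tuba1c* 97.9%, and *Tubb2a* and *Tubb2b* 96.5%. Of all stretches of 50 bases in the canonical transcript, 65.3% for *Tuba1a*, 54.6% for *Tuba1c*, 43.9% for *Tuba1b*, 34.0% for *Tubb2a* and 18.8% for *Tubb2b* also occur elsewhere in the genome or in transcripts of other genes. The share was 7.41% for *Tubb3* and under that for *Tuba4a*, *Tubb4a*, *Tubb5* and *Tubb6*. Counts of *Tuba1a*, *Tuba1b* and *Tuba1c*, and of *Tubb2a* and *Tubb2b*, are therefore uncertain as to which gene of the set they came from, since the handling of reads with several matches is not given in the sources used here.

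Total counts ran from 7430401 to 13345552 in CRE and from 9833872 to 17112815 in RFP libraries over the 21 libraries (11 CRE and 10 RFP) compared throughout, which are those of the study's own count table and lack CRE 3-3 (1546796 counts) and RFP 3-2 (7635735 counts). *Nedd8* stood at 5.92 to 18.0 CPM (read counts relative to library size, TMM-normalised) in CRE and at 44.1 to 76.0 CPM in RFP libraries, without overlap. CRE 1-3, which is among the 21 and which the study's methods name as removed, took 0.261% of its counts from mitochondrial genes, RFP 2-4 took 3.43% and CRE 3-3 took 1.83%, against 6.997% to 11.1% in the other 20 libraries. Results were therefore also computed over 19 libraries, the 21 without CRE 1-3 and RFP 2-4. CRE 3-3 and RFP 3-2 stayed left out, though RFP 3-2 took 10.1% of its counts from mitochondrial genes.

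Neuronal tubulin mRNAs made up less of the RNA of Nedd8-deficient cultures. All 6 neuronal isotypes fell, by between 27.8% (*Tuba4a*) and 52.8% (*Tuba1a*), whereas the widely expressed isotypes moved apart, with *Tubb6* and *Tuba1c* higher, *Tuba1b* lower and *Tubb5* not past the test. Thus 7 of the 10 genes were called lower and 2 higher at an adjusted p under 0.05 (edgeR's quasi-likelihood test, Benjamini-Hochberg adjustment over 14488 genes), where 13.8% of all genes tested were called lower and 16.4% higher. Without culture 2 the genes called lower numbered 4, since *Tuba4a*, *Tubb2a* and *Tubb3* lost the call. The share of all genes called in that fit was not counted. The median log2 fold change was -0.79 over the neuronal isotypes, against 0.02 over all genes tested. Over the widely expressed isotypes it was 0.63, the midpoint between *Tubb5* (-0.37) and *Tubb6* (1.62). Their summed level was nonetheless lower in CRE (median 1073 CPM) than in RFP libraries (median 1444 CPM), a difference that was not tested. In bulk RNA, fewer cells of a type and less RNA per cell cannot be told apart. Over the 19 libraries 8 of the 10 genes were called lower and the same 2 higher, where 18.7% of all genes were called lower and 19.4% higher.

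**Figure D1:**
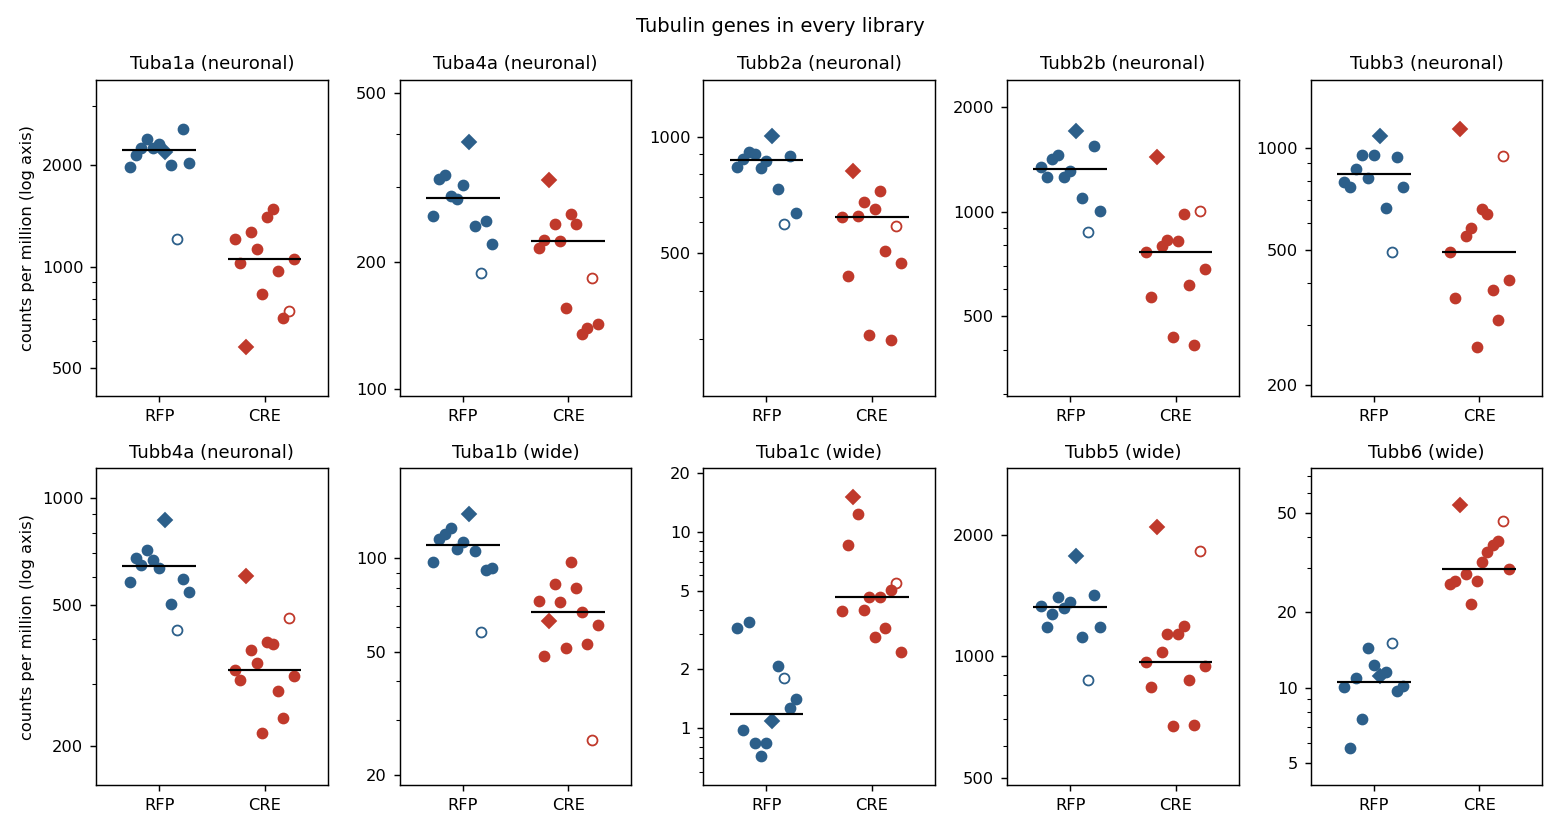
Level of each tubulin gene in every library, in CPM on a log axis. Points are libraries, the black line is the median of the 21 libraries compared, diamonds are CRE 1-3 and RFP 2-4, and open circles are CRE 3-3 and RFP 3-2, which were left out. All filled CRE points of *Tuba1a* lie below, and those of *Tubb6* above, every filled RFP point.

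*Tuba1a* (ENSMUSG00000072235, chromosome 15 from 98847714 to 98851589, minus strand), the main alpha tubulin of growing neurons, was the most abundant tubulin per length in both groups. Its level was 1982 CPM at the lowest, 2223 at the median and 2569 at the highest of the 10 RFP libraries, and 578, 1056 and 1485 CPM in the 11 CRE libraries. Every CRE library lay below every RFP library, a separation seen in this direction for 2.08% of all genes tested. The mean was 2215 ± 184 CPM (SD, n = 10) in RFP and 1060.5 ± 281 CPM (SD, n = 11) in CRE libraries, and the log2 fold change was -1.08 (SE, the standard error, 0.13, edgeR adjusted p = 7.12e-07). Of the libraries left out, CRE 3-3 stood at 737 CPM, within the range of the CRE group, and RFP 3-2 at 1208 CPM, also within the range of the CRE group. When the counts of *Tuba1a*, *Tuba1b* and *Tuba1c* were summed before the fit, the log2 fold change was -1.06 (edgeR adjusted p = 6.30e-07). *Gm49450* overlaps 26.1% of the exonic bases of *Tuba1a* on the same strand and was at 0 in all of the 21 libraries.

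*Tuba4a* (ENSMUSG00000026202, chromosome 1 from 75189219 to 75196566, minus strand), an alpha tubulin of mature neurons whose coding sequence lacks the terminal tyrosine codon, changed least among the neuronal isotypes. It ranged from 220.2 to 385 CPM in RFP libraries (median 283) and from 134 to 313 CPM in CRE libraries (median 224). The groups overlapped, with 5 of 11 CRE libraries below every RFP library. The log2 fold change was -0.47 (SE 0.14, edgeR adjusted p = 0.0146), and the call was lost with counts summed per culture (edgeR adjusted p = 0.0742) and without culture 2 (edgeR adjusted p = 0.205). *Stk16* overlaps 51.9% of the exonic bases of *Tuba4a* on the opposite strand and stood at 42.3 to 61.5 CPM in RFP and 37.5 to 73.6 CPM in CRE libraries.

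Among the neuronal beta tubulins, *Tubb4a* (ENSMUSG00000062591, chromosome 17 from 57387057 to 57394782, minus strand), known as a brain isotype, was at 504 to 866 CPM in RFP (median 643) and at 218 to 605 CPM in CRE libraries (median 329). Only CRE 1-3 reached into the RFP range, and the other 10 CRE libraries lay at or under 394 CPM, below every RFP library. Its log2 fold change was -0.92 (SE 0.14, edgeR adjusted p = 1.80e-05), the second largest fall after *Tuba1a*.

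*Tubb2b* (ENSMUSG00000045136, chromosome 13 from 34307245 to 34315143, minus strand), a beta tubulin of developing neurons, was at 1006 to 1709 CPM in RFP libraries (median 1327) and at 413 to 1439.6 CPM in CRE libraries (median 763). Again 10 of 11 CRE libraries were below every RFP library, the exception being CRE 1-3. The log2 fold change was -0.84 (SE 0.17, edgeR adjusted p = 3.75e-04). *Tubb2b* had the lowest GC content of the 10 genes (45.3%), and with each library's trend over GC content removed its log2 fold change was -0.59 and no longer passed (edgeR adjusted p = 0.126).

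*Tubb3* (ENSMUSG00000062380, chromosome 8 from 124138163 to 124150092, plus strand), whose product is the classical neuron-specific beta tubulin, ranged from 666 to 1083 CPM in RFP libraries with a median of 839. In CRE libraries it ranged from 259 to 1133 CPM with a median of 491, where the highest value belonged to CRE 1-3 and the next to it was 659.5 CPM. The log2 fold change was -0.73 (SE 0.19, edgeR adjusted p = 0.00393) over the 21 libraries and -0.87 (SE 0.15, edgeR adjusted p = 5.82e-05) over the 19. The call was lost without culture 2 (edgeR adjusted p = 0.110) and without culture 3 (edgeR adjusted p = 0.0502).

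*Tubb2a* (ENSMUSG00000058672, chromosome 13 from 34257549 to 34261998, minus strand), the near-identical neighbour of *Tubb2b*, was at 636 to 1003 CPM in RFP (median 871) and at 298 to 816 CPM in CRE libraries (median 619.6). The groups overlapped, with 7 of 11 CRE libraries below every RFP library. The log2 fold change was -0.63 (SE 0.15, edgeR adjusted p = 0.00215), and that of the summed counts of *Tubb2a* and *Tubb2b* was -0.75 (edgeR adjusted p = 6.78e-04). Without culture 2 the adjusted p of *Tubb2a* in edgeR was 0.0504. *Bphl* covers 89.2% of the exonic bases of *Tubb2a* on the opposite strand and stood at 5.74 to 14.5 CPM in CRE and 8.76 to 18.5 CPM in RFP libraries.

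The widely expressed isotypes did not share a direction. *Tubb6* (ENSMUSG00000001473, chromosome 18 from 67523585 to 67536773, plus strand), a beta tubulin of low abundance in neurons, rose. It was at 5.73 to 14.4 CPM in RFP libraries (median 10.6) and at 21.6 to 53.7 CPM in CRE libraries (median 29.9). Every CRE library exceeded every RFP library, which held for 2.64% of all genes tested. Its mean was 10.4 ± 2.41 CPM (SD, n = 10) in RFP and 32.3 ± 8.77 CPM (SD, n = 11) in CRE libraries, and the log2 fold change of 1.62 (SE 0.17, edgeR adjusted p = 7.65e-08) corresponds to a 3.07-fold higher level. Exons of *Tubb6* are overlapped over 54.8% of their bases by genes of the opposite strand, among them *Afg3l2*, which stood at 49.5 to 71.1 CPM in RFP and 38.4 to 110.5 CPM in CRE libraries.

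*Tuba1c* (ENSMUSG00000043091, chromosome 15 from 98927748 to 98936266, plus strand), an alpha isotype best known from proliferating cells, also rose. Its counts were few, between 7 and 155 per library over both groups. The RFP libraries held 0.718 to 3.48 CPM (median 1.18) and the CRE libraries 2.43 to 15.0 CPM (median 4.62). The highest values, above 8 CPM, were all from culture 1, and 8 of 11 CRE libraries exceeded every RFP library. The log2 fold change was 1.90 (SE 0.38, edgeR adjusted p = 4.42e-04). At this level *Tuba1c* had less than 1 count for every 100 of *Tuba1a*, with which it shares 97.1% of coding bases, in each RFP library.

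*Tuba1b* (ENSMUSG00000023004, chromosome 15 from 98827738 to 98832493, minus strand), the alpha isotype found in most tissues, was lower, at 92.0 to 139.6 CPM in RFP (median 110.4) and 48.4 to 97.6 CPM in CRE libraries (median 67.3). Only 1 CRE library reached the RFP range. Its log2 fold change was -0.72 (SE 0.12, edgeR adjusted p = 5.25e-05).

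*Tubb5* (ENSMUSG00000001525, chromosome 17 from 36144809 to 36149198, minus strand), a beta tubulin of dividing and developing cells, did not pass over the 21 libraries. It was at 1115 to 1776 CPM in RFP (median 1327) and at 671 to 2094 CPM in CRE libraries (median 970.4). CRE 1-3 alone lay above every RFP library, the next CRE library was at 1192 CPM, and 7 of 11 were below every RFP library. Over the 21 libraries the log2 fold change was -0.37 (SE 0.15, edgeR adjusted p = 0.0724), and without CRE 1-3 it was -0.52 (SE 0.10, edgeR adjusted p = 1.59e-04). In the 19 libraries it was -0.46 (SE 0.09, edgeR adjusted p = 2.56e-04), and in all 23, where CRE 3-3 (1831 CPM) also lay above every RFP library, it was -0.22 (SE 0.17, edgeR adjusted p = 0.361). *Flot1* overlaps 45.6% of the exonic bases of *Tubb5* on the opposite strand and stood at 91.4 to 169 CPM in RFP and 61.9 to 163 CPM in CRE libraries.

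**Figure D2:**
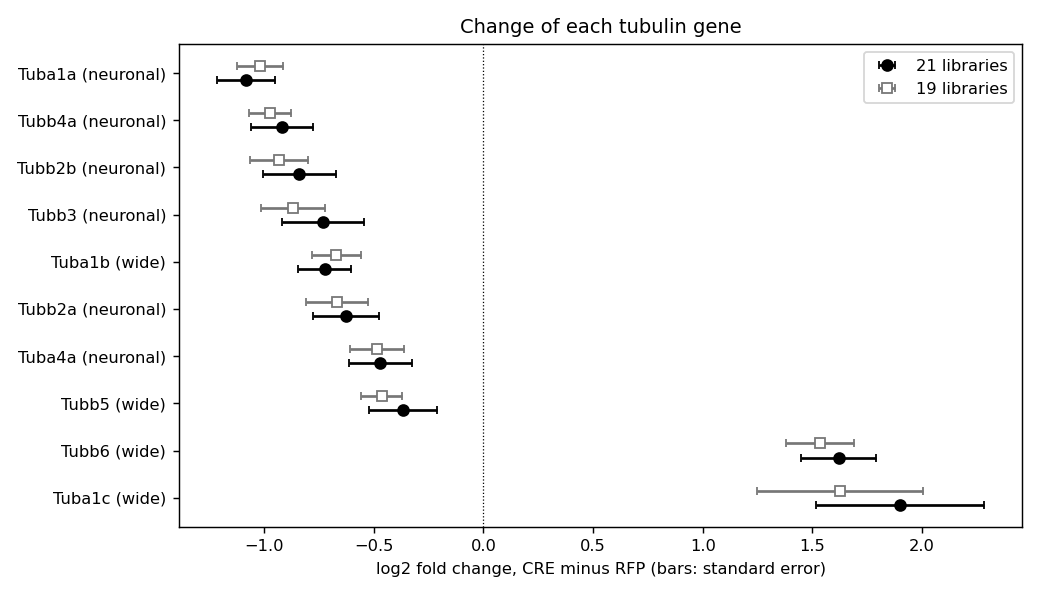
Log2 fold change of each tubulin gene, CRE minus RFP, with its standard error, over 21 libraries (filled circles) and over 19 libraries (open squares). The genes run from *Tuba1a* at -1.08 to *Tuba1c* at 1.90, and the 8 genes below 0 hold all 6 neuronal isotypes.

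CRE 1-3 differed from the rest of its group in opposite ways for different tubulins. It had the lowest level of *Tuba1a* in the CRE group (578 CPM) and the highest of *Tuba4a*, *Tubb2a*, *Tubb2b*, *Tubb3*, *Tubb4a*, *Tubb5*, *Tubb6* and *Tuba1c*. Without CRE 1-3 the mean of the CRE group was 464 ± 140 CPM (SD, n = 10) for *Tubb3* and 948 ± 184 CPM (SD, n = 10) for *Tubb5*, compared with 525 ± 242 and 1052 ± 387 CPM (SD, n = 11) with it. RFP 2-4, which also had few mitochondrial counts, was the highest RFP library for *Tuba4a*, *Tubb2a*, *Tubb2b*, *Tubb3*, *Tubb4a*, *Tuba1b* and *Tubb5*. The left-out RFP 3-2 lay below the other RFP libraries and within the CRE range for every gene but *Tubb6* and *Tuba1c*. It stood at 872 CPM for *Tubb2b* and 492 CPM for *Tubb3*. For *Tubb6* it was at 15.1 CPM, below every CRE library.

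Fold changes were also taken between CRE and RFP libraries of the same culture number. Nothing states that libraries of the same number in both groups share a culture, and the numbers were not taken to pair them. The fold change of each of the 10 genes had the same sign for all 3 culture numbers. The log2 fold change of *Tuba1a* was -1.09, -0.93 and -1.28 in cultures 1, 2 and 3, and that of *Tubb6* was 1.88, 1.32 and 1.74. *Tuba1c* had 1.93, 2.18 and 1.16. *Tubb5* had -0.06 in culture 1, which holds CRE 1-3, -0.52 in culture 2 and -0.58 in culture 3. *Tubb3* likewise went from -0.38 in culture 1 to -1.12 in culture 3. The interaction of culture number with group did not pass for any of the 10 genes (lowest edgeR adjusted p = 0.977). It passed for 1 gene of all tested (0.00690%), with 595 at an unadjusted p under 0.05. By culture number, the largest edgeR adjusted p was 0.00555 for *Tuba1a*, 0.0497 for *Tubb4a* and 0.00324 for *Tubb6*. Each of the other genes had an adjusted p over 0.05 in at least 1 culture. The share of all genes called in these fits was not counted.

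**Figure D3:**
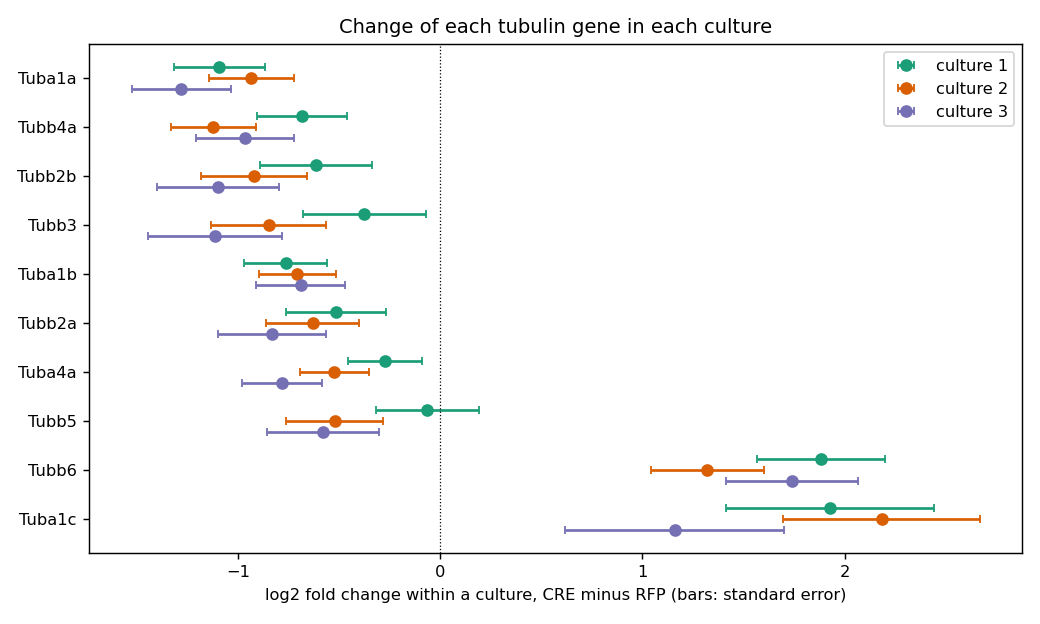
Log2 fold change of each tubulin gene between libraries of culture number 1, 2 and 3, CRE minus RFP, with standard errors. Whether equal numbers mark the same culture in both groups is not stated. All points of the 8 upper genes lie below 0 and all points of *Tubb6* and *Tuba1c* above it, and culture 1 lies nearest to 0 for *Tubb5* (-0.06).

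To compare genes with each other, CPM were divided by the summed exon length in kilobases. In RFP libraries *Tuba1a* led with a median of 1227 CPM per kilobase, followed by *Tubb5* (397), *Tubb2a* (371), *Tubb4a* (287), *Tubb3* (261) and *Tubb2b* (215). *Tuba4a* (51.9) and *Tuba1b* (31.6) were well below these, and *Tubb6* (2.79) and *Tuba1c* (0.456) were the lowest. Neighbours in this order were separated in all 10 RFP libraries except *Tubb5* from *Tubb2a* and *Tubb4a* from *Tubb3*, each pair being in that order in 8 of 10. In CRE libraries the order by the median was the same but for *Tubb3* (153), which stood above *Tubb4a* (147).

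The 10 genes together held 0.758 ± 0.0911% of all counts in RFP (SD, n = 10) and 0.475 ± 0.116% in CRE libraries (SD, n = 11). RFP 3-2, left out of the mean, was at 0.345%, within the CRE range of 0.315% to 0.702%. Of the summed CPM per kilobase, neuronal isotypes made up 82.5% to 85.8% in RFP (mean 84.7 ± 0.971%, SD, n = 10) and 70.4% to 81.4% in CRE libraries (mean 79.2 ± 3.12%, SD, n = 11), so that the groups did not overlap. The lowest CRE value was that of CRE 1-3, and CRE 3-3, left out of the mean, was at 70.3%. *Tuba1a* alone made up 43.1 ± 2.58% in RFP (SD, n = 10) and 36.4 ± 7.58% in CRE libraries (SD, n = 11). *Tubb5* went from 14.1 ± 0.960% to 18.9 ± 3.13%, its log2 fold change being nearer to 0 than those of the other abundant isotypes, and *Tubb6* from 0.0971 ± 0.0249% to 0.542 ± 0.185%. These shares were not tested. *Tuba1a* is in the other class than *Tuba1b* and *Tuba1c*, and which of these genes a count came from is uncertain.

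**Figure D4:**
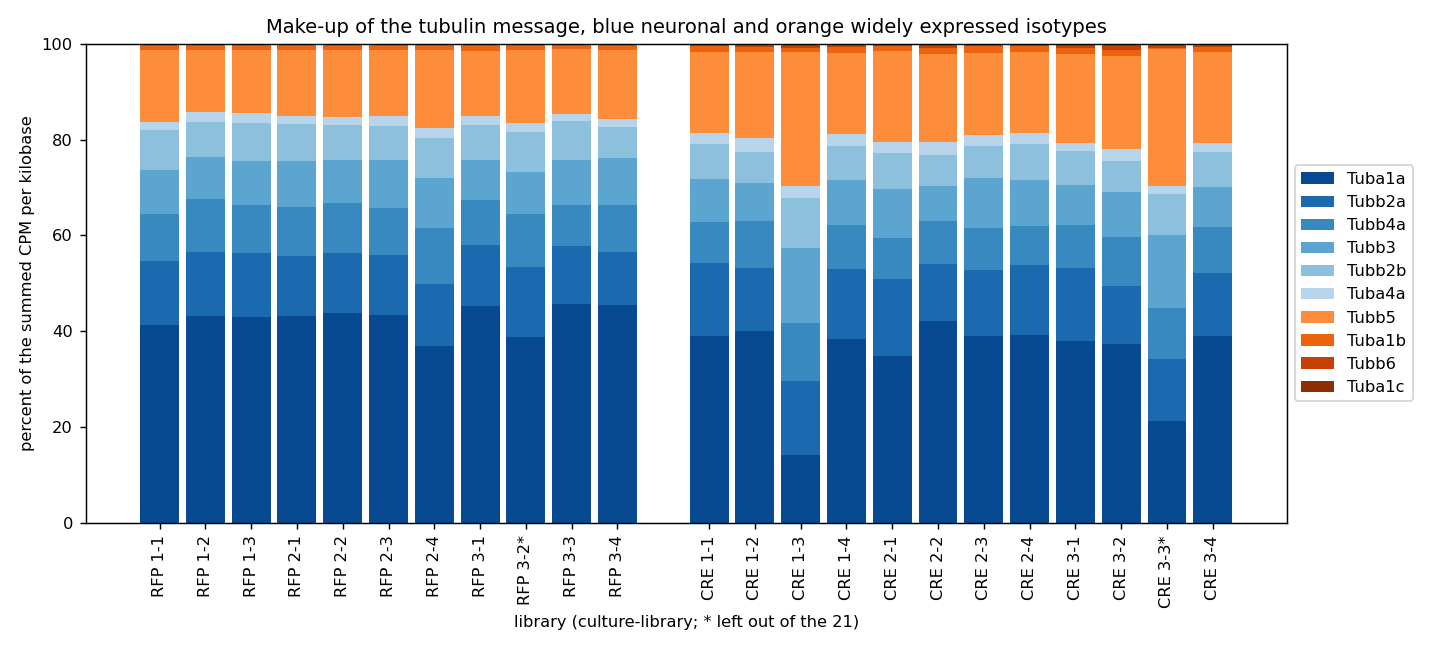
Share of each tubulin gene in the summed CPM per kilobase of the 10 genes, for each of the 23 libraries, with neuronal isotypes in blue and widely expressed isotypes in orange. The blue part reaches 82.5% to 85.8% in the RFP libraries and at most 81.4% in the CRE libraries, and CRE 1-3 and CRE 3-3 stand out with a small share of *Tuba1a*.

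Within the groups, the level of most isotypes rose and fell together from library to library. Over the 19 libraries, with the mean of each group subtracted, log2 CPM of *Tuba1a* correlated with those of *Tubb2b* (r = 0.92), *Tubb5* (r = 0.91), *Tubb2a* (r = 0.90), *Tubb3* (r = 0.90) and *Tubb4a* (r = 0.87). The 2 genes that rose did not follow, with r = -0.12 for *Tubb6* and r = -0.11 for *Tuba1c* against *Tuba1a*, and r = -0.01 between them. Among 9936 genes with a mean of at least 10 CPM, those outside the tubulins that tracked *Tuba1a* most closely were *Stmn2* (r = 0.92), whose product binds tubulin dimers in growing axons, *Gabbr2* (r = 0.91), a GABA-B receptor subunit, and *Cxcl14* (r = 0.91), a chemokine. For *Tubb6* they were *Zfp30* (r = 0.75), *Pi4kb* (r = 0.74) and *Sntg1* (r = 0.73). The log2 fold changes of *Zfp30*, *Pi4kb* and *Sntg1* over the 21 libraries were 0.54, 0.21 and -0.57. The genes named for *Tubb6* were picked as the highest r among 9936 genes over 19 libraries. Whether chance alone gives values of r as high as those for *Tubb6* was not tested. These correlations are descriptions over libraries that share cultures and differ in depth.

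Genes that make, fold and modify tubulin were read from whole lists of each step, against the 13.8% of all genes that were called lower and the 16.4% called higher. Shares near these are no result about a list. Of 6 other tubulin genes tested, 1 was lower and none higher. This was *Tubg2*, a gamma tubulin, with 13.2 to 24.7 CPM in RFP and 7.32 to 25.3 CPM in CRE libraries and a log2 fold change of -0.64 (edgeR adjusted p = 0.0100). *Tubb4b*, the widely expressed relative of *Tubb4a*, was at 233 to 361 CPM in RFP and 146 to 588 CPM in CRE libraries, and did not pass (log2 fold change -0.06, edgeR adjusted p = 0.830).

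Among 20 subunits of the chaperonin CCT, prefoldin and the tubulin cofactors, 1 was higher and 1 lower, with a median log2 fold change of -0.0027. These were both subunits of CCT, the ring that folds tubulin, namely *Cct4* (log2 fold change 0.30, edgeR adjusted p = 0.0187) and *Cct6a* (log2 fold change -0.41, edgeR adjusted p = 0.00916). None of the 3 autoregulation genes passed in either direction, and their log2 fold changes were -0.16 for *Ttc5*, which recognises nascent tubulin, -0.26 for *Scaper* and -0.04 for *Cnot11*, which link it to the deadenylase.

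Of 19 enzymes of the tubulin tail and of acetylation, 3 were lower and none higher, near the share of all genes. They were *Agbl3*, a deglutamylase (log2 fold change -0.86, edgeR adjusted p = 0.00987), *Atat1*, the alpha tubulin acetyltransferase (log2 fold change -0.36, edgeR adjusted p = 0.0234), and *Matcap1*, a tyrosine carboxypeptidase (log2 fold change -0.44, edgeR adjusted p = 0.0413). Over the 19 libraries, where 18.7% of all genes were lower, 5 were lower and 1 higher. Of 16 genes of microtubule nucleation 2 were higher, again near the share of all genes, *Tubgcp4* of the gamma tubulin complex (log2 fold change 1.15, edgeR adjusted p = 7.07e-05) and *Haus8* of augmin (log2 fold change 0.91, edgeR adjusted p = 0.00906). Of 8 severing enzymes and their relatives, *Fignl2* was higher (log2 fold change 1.64, edgeR adjusted p = 0.00990), and *Katnal1* (log2 fold change -0.47, edgeR adjusted p = 0.00100) and *Fignl1* (log2 fold change -1.39, edgeR adjusted p = 0.00383) were lower.

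Markers of several cell types moved with the groups as well, where 13.8% of all genes were lower and 16.4% higher. Of 6 neuron markers 4 were lower and none higher, with a median log2 fold change of -0.73. The median was -0.64 over astrocyte, -0.99 over oligodendrocyte lineage and -1.56 over dividing cell markers. It was 0.62 over vascular and mesenchymal markers, which ran from -1.08 to 1.18. Over the 2 microglial markers tested it was 1.10, the midpoint between -1.02 and 3.21. Neuron markers summed to 4237 to 5539 CPM in RFP and to 918 to 4448 CPM in CRE libraries. Without CRE 1-3 the sums of the CRE group ran from 2464 to 4448 CPM. All 8 markers of dividing cells were lower, with a summed level of 179.5 to 292 CPM in RFP and 4.90 to 179 CPM in CRE libraries. The lowest of these was CRE 1-3, and without it the CRE sums began at 29.4 CPM. Of 7 astrocyte markers 3 were lower and 1 higher (sums of 3594 to 7814 CPM in RFP and 1554 to 5102 CPM in CRE). Of 8 oligodendrocyte lineage markers 5 were lower (647 to 1867 CPM in RFP and 425 to 1909.9 CPM in CRE). The highest of these CRE sums was that of CRE 1-3, and the other CRE libraries compared reached at most 1009 CPM. Vascular and mesenchymal markers summed to 17.4 to 111 CPM in RFP and 12.9 to 236 CPM in CRE libraries, with 1 of 6 higher, about the share of all genes, and microglial markers to at most 7.70 CPM in any of the 21 libraries, with 1 of 2 higher. No marker was at 0 in all of the 21 libraries. The part of these cell types in the tubulin values was not tested.

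**Figure D5:**
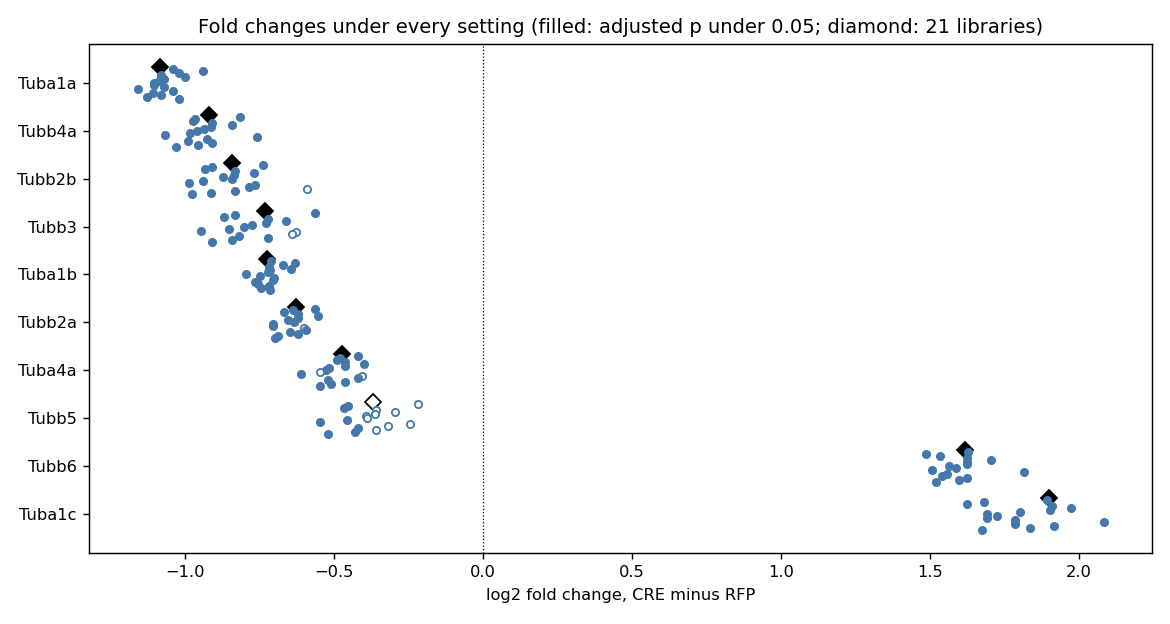
Log2 fold change of each tubulin gene, CRE minus RFP, under the 21-library comparison (diamonds) and the other settings (circles), filled where the adjusted p was under 0.05. No point crosses 0, and *Tubb5* is the gene whose points are divided most evenly between filled and open.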

How the data were processed

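RNA was measured in 23 libraries of Nedd8cKO hippocampal cultures. The authors aligned reads with STAR 2.7.8a to GRCm39 with the Ensembl annotation and deposited whole-number counts per gene from featureCounts 1.5.0-p1, without normalization. The study names a stranded mRNA library kit. The strand setting of the counting and the treatment of reads with several matches are not given in the sources used here. GENCODE gene models of the same build named 56323 of 56941 genes, with 99.95% of counts.

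Counts were compared with edgeR 4.0.16 (R 4.3.3; filterByExpr, TMM, estimateDisp, robust glmQLFit, glmQLFTest) over 21 libraries, and p-values were adjusted over all genes tested. DESeq2 1.42.0 and limma 3.58.1 were alternatives. CPM used TMM factors over 23 libraries, and 0.5 was added before log2 for correlations. The comparison was tested on simulated data. No libraries of a group agreed within sampling noise (chi-square per gene at least 10.9).

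The members, gene lists and marker lists were chosen with earlier results of these data known. Named were all 10 members, up to 3 called genes with the smallest adjusted p in each list of the tubulin pathway, *Tubb4b*, and the 3 closest correlates of *Tuba1a* and *Tubb6*. *Nedd8*, *Bphl*, *Afg3l2*, *Stk16*, *Flot1* and *Gm49450* were named outside this rule, as the targeted gene and as overlapping genes. The coding ends of some members are not reported here.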

Additional observations from a re-analysis of the deposited data

Results flagged for a closer look

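*Tubb5* was set apart by 1 RFP library. In the 10 RFP libraries the gap between RFP 2-4 (1776 CPM) and its nearest neighbour was 0.533 of the whole range of the group, above Dixon's 95% critical value. It was the only 1 of 11 measures tested in this way, the levels of the 10 genes and the neuronal share, and chance alone gives such a gap in about 1 group of 20.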

How the results depend on the processing

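The direction of all 10 genes was kept under 16 other settings, and that of *Tuba1a* and *Tubb2a* also with near-identical genes summed, which was run for these genes only. This setting and the one without CRE 1-3 were chosen after seeing the data. Of 162 comparisons of a gene with its value over 21 libraries, 149 stayed on the same side of the threshold, 6 lost the call and 7, all of *Tubb5*, gained it. Leaving out a culture in turn gave 4 to 8 genes lower and 2 to 2 higher. Without culture 2 the number lower was 4, where *Tuba4a* (adjusted p = 0.205), *Tubb2a* (adjusted p = 0.0504) and *Tubb3* (adjusted p = 0.110) lost the call in edgeR, and without culture 3 *Tubb3* did (adjusted p = 0.0502 from edgeR). Fewer libraries entered these fits, and the share of all genes called in them was not counted. The neuronal share was 75.0% in CRE and 80.9% in RFP libraries when counts were not divided by length. With culture, or culture and library number, as a replicate block, 7 genes were lower and 2 higher, the same genes as without it. The share of all genes called in the blocked fits was not counted either. The culture means of the groups correlated at 0.0337, 0.0411 and 0.135. Single CRE libraries correlated with RFP libraries of their own number at a mean of 0.026, 0.015 and 0.052. With RFP libraries of other numbers the means were -0.009, -0.006 and -0.018. These low values do not settle whether the numbers pair the libraries, and the numbers were not taken to do so. The number of other tubulin genes called was 2 rather than 1 in the 19 libraries, and that of tail and acetylation enzymes 6 rather than 3. Depth limits *Tuba1c* most, which had as few as 7 counts in a library.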
